A study of Mus musculus with 4 samples.

Results

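The insulin-like growth factor (IGF) system was examined through 10 genes, namely the ligands *Igf1* and *Igf2*, the receptors *Igf1r* and *Igf2r*, and the binding protein genes *Igfbp2*, *Igfbp3*, *Igfbp4*, *Igfbp5*, *Igfbp6* and *Igfbp7*. They were 10 of 19938 genes with a probe set annotated to that symbol alone, and each had 1 such probe set. The set was chosen by gene family, but with the log2 expression values of the same shPW1 against shCtrl comparison already known. The values of the 10 genes are therefore a description, with a standard error and a 95% interval. Whether the fit over all probe sets called a gene is recorded as part of that description and serves as no test of these 10 genes, and nothing is drawn from how many were called.

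The RNA of growing AdmMABs (adult mouse mesoangioblasts), progenitor cells found along the vessels of skeletal muscle, was read on 4 Affymetrix arrays (Mouse Gene 1.0 ST). The cells were taken from the tibialis anterior of adult male C57/BL6 mice. In the shPW1 group (2 arrays) the cells carried a lentiviral vector with a short hairpin RNA against PW1, the zinc-finger protein encoded by *Peg3*, which the labels also write as PW1-siRNA. In the shCtrl group (2 arrays) they carried a lentiviral shScramble vector that matches no mouse sequence. Both groups were a polyclonal population kept in DMEM with 20% fetal bovine serum until RNA was taken. The 2 arrays of a group came from separate RNA extractions of the same cells, so the errors and p-values below measure the spread between extractions and not between cell populations. A single hairpin against PW1 was used, so effects of that hairpin and of PW1 loss cannot be told apart. The methods name a control hairpin in a different plasmid from that of the PW1 hairpin. They do not say in which vector backbone the control hairpin of these arrays was carried, so an effect of the backbone cannot be told apart either.

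IGF1 and IGF2 are secreted growth factors that act through IGF1R, a receptor tyrosine kinase that recruits insulin receptor substrates and switches on phosphatidylinositol 3-kinase (PI3K) and Akt. IGF2R, the cation-independent mannose 6-phosphate receptor, has no kinase, takes IGF2 from the cell surface to the lysosome, and also sorts newly made lysosomal enzymes. The binding proteins hold IGFs away from the receptor or deliver them to it, and several also act at the cell surface or in the matrix without IGF. In skeletal muscle the system is known for supporting both growth and differentiation of myogenic cells, and differentiating mouse myoblasts make IGF2 and IGFBP5 themselves. *Igf2* and *Igf2r* are imprinted in the mouse, *Igf2* being expressed from the paternal and *Igf2r* from the maternal allele, while *Peg3* is itself paternally expressed.

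*Peg3* had log2 expression of 6.22 and 6.47 on the shPW1 arrays, against 8.67 and 8.70 on the shCtrl arrays. That is 19.8% of the shCtrl level (log2 fold change -2.34, SE 0.10, adjusted p = 0.00428 by limma with Benjamini-Hochberg adjustment), so the arrays carry the silencing their labels name. Replicate arrays were close, with an SD of the differences between them of 0.17 in shPW1 and 0.15 in shCtrl over the 21789 probe sets tested.

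The cell type was checked against marker lists. Of 12 mesoangioblast and pericyte markers, 7 lay above the median level of the tested probe sets, *Pdgfrb* and *Des* among them. *Alpl*, the alkaline phosphatase by which such cells are often recognised, lay below it in both groups, as did *Rgs5*, *Abcc9*, *Kcnj8* and *Eng*. Above it lay 6 of 8 satellite cell and myoblast markers and 4 of 9 measured fibro-adipogenic markers. So did 2 of 6 adipocyte and 1 of 4 measured Schwann cell markers, and these levels do not tell mesoangioblasts from myoblasts. All 8 endothelial and all 8 leukocyte markers were below that median, and neither list had a gene past the limma test, at an unadjusted p under 0.05 or by the analysis of variance of the study's methods (unadjusted p under 0.05 and a change of over 1.2-fold). Some markers did move with the groups, beside 4.93% of all probe sets called higher and 4.17% called lower. Among genes at or above the median level these shares were 8.97% and 6.86%. Of the mesoangioblast and pericyte markers 6 fell and none rose (1 rose at an unadjusted p under 0.05), with list means of 7.11 and 7.09 on the shPW1 arrays and 7.41 and 7.46 on the shCtrl arrays. Of 8 satellite cell and myoblast markers 4 fell and none rose (none at an unadjusted p under 0.05 either), with list means of 7.71 and 7.66 against 8.15 and 8.19, and *Myod1* fell most (log2 fold change -1.72, SE 0.08, adjusted p = 0.00503). Of 9 measured fibro-adipogenic markers 3 fell and none rose (4 and none at an unadjusted p under 0.05), with list means of 5.96 and 5.96 against 6.22 and 6.20. Of 6 adipocyte markers 1, *Pparg*, fell (log2 fold change -0.58, SE 0.07, adjusted p = 0.019), with list means of 5.72 and 5.71 against 5.79 and 5.84, and of 4 measured Schwann cell markers none was called (1 lower at an unadjusted p under 0.05). The part of these marker differences in the IGF values was not tested, and in RNA of whole cultures fewer cells of a type and less RNA per cell cannot be told apart.

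The shPW1 AdmMABs had much less *Igfbp2* and *Igfbp5* mRNA and more *Igfbp4* mRNA than the shCtrl AdmMABs. *Igfbp2* was 5.27-fold and *Igfbp5* 4.93-fold lower in shPW1 cells, *Igf2r* was 1.97-fold lower and *Igfbp4* 1.85-fold higher. *Igfbp7* (1.34-fold higher) and *Igfbp6* (1.29-fold lower) differed by less, *Igf2* and *Igfbp3* were lower and *Igf1r* slightly higher without being called, and *Igf1* was alike on all arrays. Across the system the limma fit called 2 of the 10 genes higher and 4 lower at an adjusted p under 0.05, beside 4.93% of all probe sets called higher, 4.17% called lower and 9.1% called either way. The median log2 fold change was -0.45 over the 10 genes and -0.01 over all genes. In 9 of the 10 the arrays of the groups did not overlap, 3 of them higher and 6 lower in shPW1, but so it was in 55.5% of all probe sets (27.5% higher and 28% lower). A difference of at least 2-fold was seen in 2 of the 10 genes and in 0.73% of all probe sets. With any 1 of the 4 arrays left out (shPW1 replicate 1 or 2, shCtrl replicate 1 or 2) no probe set passed in limma, *Peg3* included (-2.47 to -2.21), so those fits do not tell firm calls from weak ones. Without adjustment 3790 to 5379 probe sets then had a p under 0.05. The log2 fold changes of the 6 called genes kept their sign, which could not turn since their groups did not overlap. Calls over all probe sets split 54.2% higher as deposited, 50.6% after a second quantile normalization and 70.1% with array medians subtracted.

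**Figure D1:**
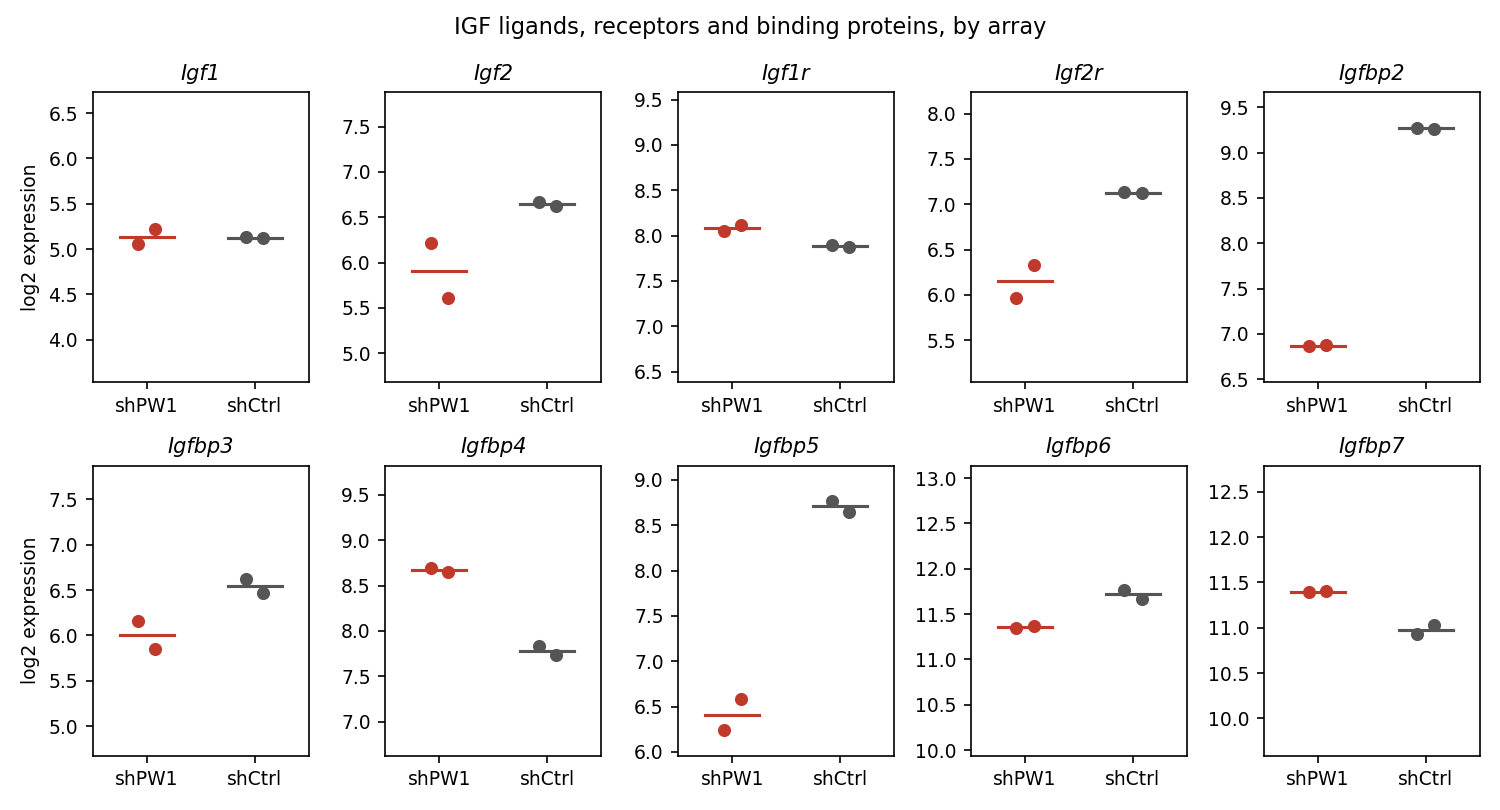
Log2 expression (y axis) of the 10 IGF genes on each shPW1 array (red, left) and shCtrl array (grey, right), with each line at the mean of the 2 arrays and all panels spanning the same number of log2 units. *Igfbp2* and *Igfbp5* stand at 6.24 to 6.87 on the shPW1 arrays and at 8.65 to 9.28 on the shCtrl arrays, whereas *Igf1* lies between 5.06 and 5.22 throughout.

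Of the ligands, *Igf2*, the main IGF of embryonic growth and an autocrine factor of differentiating myoblasts, had log2 expression of 6.21 and 5.61 on the shPW1 arrays, against 6.67 and 6.63 on the shCtrl arrays. Both shPW1 values were below both shCtrl values, but the shPW1 arrays were spread (5.91 ± 0.42, against 6.65 ± 0.03 in shCtrl, SD, n = 2 each) and the groups were 0.42 apart at their nearest. The log2 fold change was -0.74 (SE 0.20, interval -1.27 to -0.21), which puts shPW1 at 60.0% of shCtrl, and it was not called. It moved between -1.04 and -0.44 when single arrays were left out, the smaller difference being that without shPW1 replicate 2. The microRNA gene *Mir483*, which lies within *Igf2*, was read by a probe set of its own at 7.32 and 7.15 in shPW1 and at 7.26 and 7.33 in shCtrl, and these overlapped (log2 fold change -0.06, SE 0.09).

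*Igf1*, the ligand induced by growth hormone in liver and made locally in muscle, gave 5.06 and 5.22 on the shPW1 arrays and 5.14 and 5.12 on the shCtrl arrays. It was the only 1 of the 10 genes below the median level of the tested probe sets, and the groups overlapped (log2 fold change 0.01, SE 0.08, interval -0.19 to 0.21).

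Of the receptors, *Igf2r* had log2 expression of 5.97 and 6.33 on the shPW1 arrays and of 7.14 and 7.12 on the shCtrl arrays. The shCtrl arrays agreed within 0.01 (SD), the shPW1 arrays spread by 0.25, and the gap between the groups was 0.79 at its narrowest. The log2 fold change was -0.98 (SE 0.13, interval -1.32 to -0.64) and shPW1 stood at 50.7% of shCtrl. *Igf1r*, the signalling receptor, went the other way by a small amount, with 8.05 and 8.12 in shPW1 and 7.89 and 7.87 in shCtrl (log2 fold change 0.21, SE 0.06, interval 0.05 to 0.36). Its groups did not overlap, but the difference was not called. Of the 2 imprinted members, *Igf2r* was called lower in shPW1 and *Igf2* was not called.

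**Figure D2:**
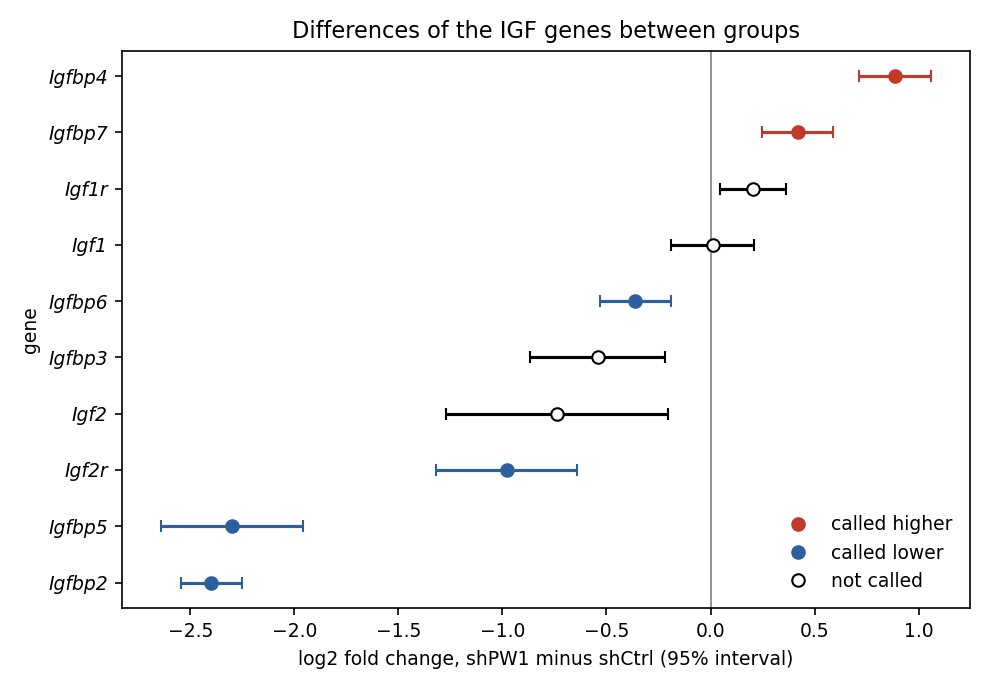
Log2 fold change, shPW1 minus shCtrl (x axis), of each IGF gene (rows), with 95% intervals from the limma fit and filled points for genes called at an adjusted p under 0.05. *Igfbp2* (-2.40) and *Igfbp5* (-2.30) stand apart from the other genes, which lie between -0.98 and 0.89.

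The binding protein genes held the widest range of differences, from -2.40 to 0.89 on the log2 scale. All 6 were above the median level of the tested probe sets and in none of the 6 did the groups overlap, with 2 called higher and 3 lower. The groups did not overlap in 55.5% of all probe sets either. Of all genes at or above the median level, 8.97% were called higher and 6.86% lower. *Igfbp2*, whose product carries an integrin-binding site and is abundant in fetal tissues, had the tightest replicates, with 6.86 and 6.87 on the shPW1 arrays and 9.28 and 9.26 on the shCtrl arrays. Its level in shPW1 was 18.97% of shCtrl (log2 fold change -2.40, SE 0.06, interval -2.55 to -2.25), and the narrowest gap between the groups was 2.38. Leaving out single arrays kept it between -2.41 and -2.39. *Igfbp5*, the most conserved of the family, which binds extracellular matrix and is made by myoblasts as they differentiate, had 6.24 and 6.58 in shPW1 and 8.77 and 8.65 in shCtrl. It stood at 20.3% of shCtrl (log2 fold change -2.30, SE 0.13, interval -2.64 to -1.96), with shPW1 arrays that differed more from each other (SD 0.24) than the shCtrl arrays did (SD 0.08).

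*Igfbp4*, whose product mostly inhibits IGF action until it is cut by the protease PAPP-A, had 8.69 and 8.65 on the shPW1 arrays and 7.83 and 7.73 on the shCtrl arrays. Its log2 fold change was 0.89 (SE 0.07, interval 0.71 to 1.06), the largest difference upward among the 10 genes, and stayed between 0.84 and 0.94 with single arrays left out. *Igfbp7*, whose product binds IGFs only weakly and is also known as a matrix protein of vessels, had 11.39 and 11.40 in shPW1 and 10.93 and 11.03 in shCtrl (log2 fold change 0.42, SE 0.07, interval 0.25 to 0.59). Both of these genes were higher on each shPW1 array than on either shCtrl array.

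*Igfbp6*, whose product prefers IGF2 to IGF1, had 11.34 and 11.37 on the shPW1 arrays and 11.77 and 11.67 on the shCtrl arrays. Although its groups did not overlap, the difference was small (log2 fold change -0.36, SE 0.07, interval -0.53 to -0.19), and its call was lost with array medians subtracted. *Igfbp3*, the main IGF carrier of serum, had 6.15 and 5.85 in shPW1 and 6.63 and 6.47 in shCtrl (log2 fold change -0.54, SE 0.12, interval -0.87 to -0.22), and it was not called. *Igfbp1*, the family gene that is not among the 10, is made mainly by liver and was below the median level, with 4.77 and 4.78 in shPW1 and 4.71 and 4.85 in shCtrl. Its groups overlapped (log2 fold change -0.01, SE 0.07, adjusted p = 0.974).

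**Figure D3:**
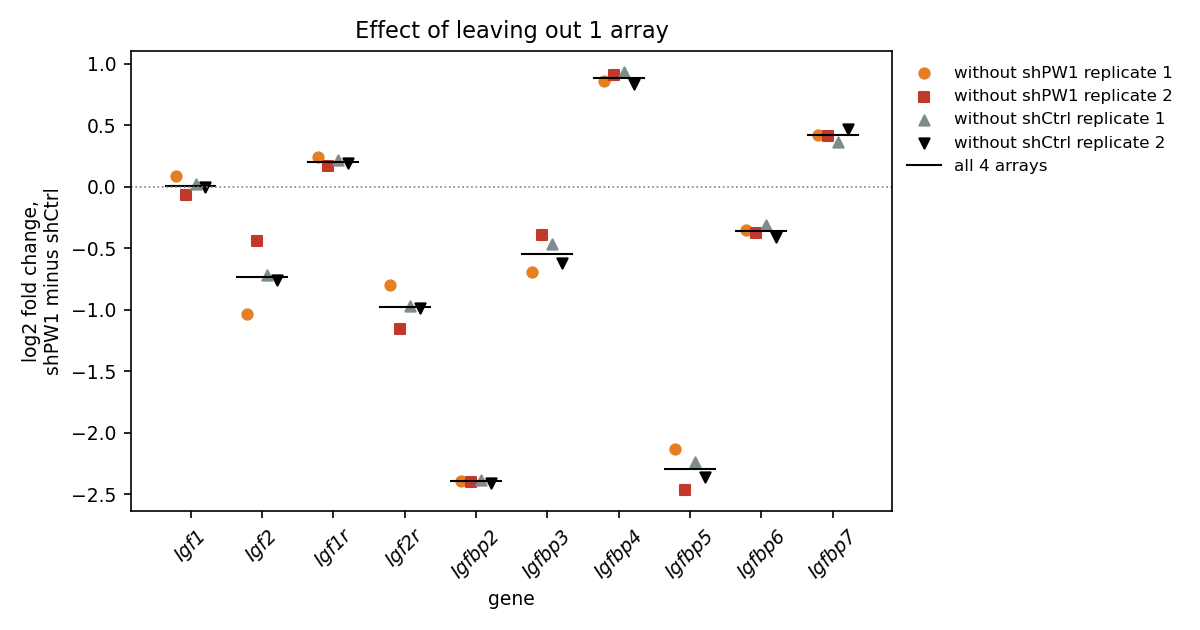
Log2 fold change, shPW1 minus shCtrl (y axis), of each IGF gene (x axis) with all 4 arrays (line) and with 1 array left out (markers). *Igf2* moves most, between -1.04 and -0.44, and *Igf1* is the only gene whose sign turns, to -0.07 without shPW1 replicate 2.

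The genes whose 4 values ran closest to *Igfbp2* and *Igfbp5*, the members that differed by more than 1 on the log2 scale, were looked up by the Euclidean distance between profiles centred on their own mean. Nearest to *Igfbp2* were *Peg3* itself (distance 0.19), the cell adhesion gene *Cadm4* (0.20) and *Hpgd* (0.20), which encodes the enzyme that inactivates prostaglandins. Nearest to *Igfbp5* were *Peg3* (0.12), the matrix proteoglycan gene *Aspn* (0.14) and *Igfbp2* (0.26). With 4 arrays in 2 groups this likeness is mostly a likeness of the difference between groups, and it is given as a description.

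*Igfbp2* and *Igfbp5* are next to each other on chromosome 1, run towards each other, and have no other protein-coding gene between them in the RefSeq gene table. Of the outer neighbours neither was called, and only the first was bright enough to show a comparable fall. *Rpl37a*, a ribosomal protein gene on the *Igfbp2* side, had 10.86 and 10.85 on the shPW1 arrays and 10.77 and 10.64 on the shCtrl arrays (log2 fold change 0.15, SE 0.07, adjusted p = 0.255). *Tnp1*, a spermatid nuclear protein gene on the *Igfbp5* side, was below the median level in both groups, with 4.50 and 4.05 in shPW1 and 4.17 and 4.34 in shCtrl (0.02, SE 0.17, adjusted p = 0.959). Of the 4 genes in this stretch, only the 2 binding protein genes were lower on both shPW1 arrays.

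The neighbours of the other binding protein genes were mixed. *Igfbp3* lies beside *Igfbp1* on chromosome 11, and on its other side *Tns3*, a focal adhesion gene, was not called (log2 fold change 0.25, adjusted p = 0.0662). *Igfbp4*, also on chromosome 11, lies between *Top2a*, the mitotic topoisomerase gene (-0.12, adjusted p = 0.292), and *Tns4* (-0.27, adjusted p = 0.0783). *Igfbp7* on chromosome 5 overlaps the end of *Polr2b*, an RNA polymerase II subunit gene that rose by a similar amount (0.34, SE 0.06, adjusted p = 0.0352), and whether the probe sets share signal there was not tested. On the far side of *Igfbp7*, *Adgrl3*, an adhesion receptor gene, fell, with 5.42 and 5.69 on the shPW1 arrays and 7.08 and 7.12 on the shCtrl arrays (-1.54, SE 0.11, adjusted p = 0.00734). Beside the ligand and receptor genes, none of *Mrpl23* and *Ins2* (next to *Igf2*), *Pmch* (*Igf1*), *Synm* and *Pgpep1l* (*Igf1r*) and *Mas1* (*Igf2r*) passed the test, nor did *Spryd3* beside *Igfbp6*, and their log2 fold changes lay between -0.28 and 0.17.

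**Figure D4:**
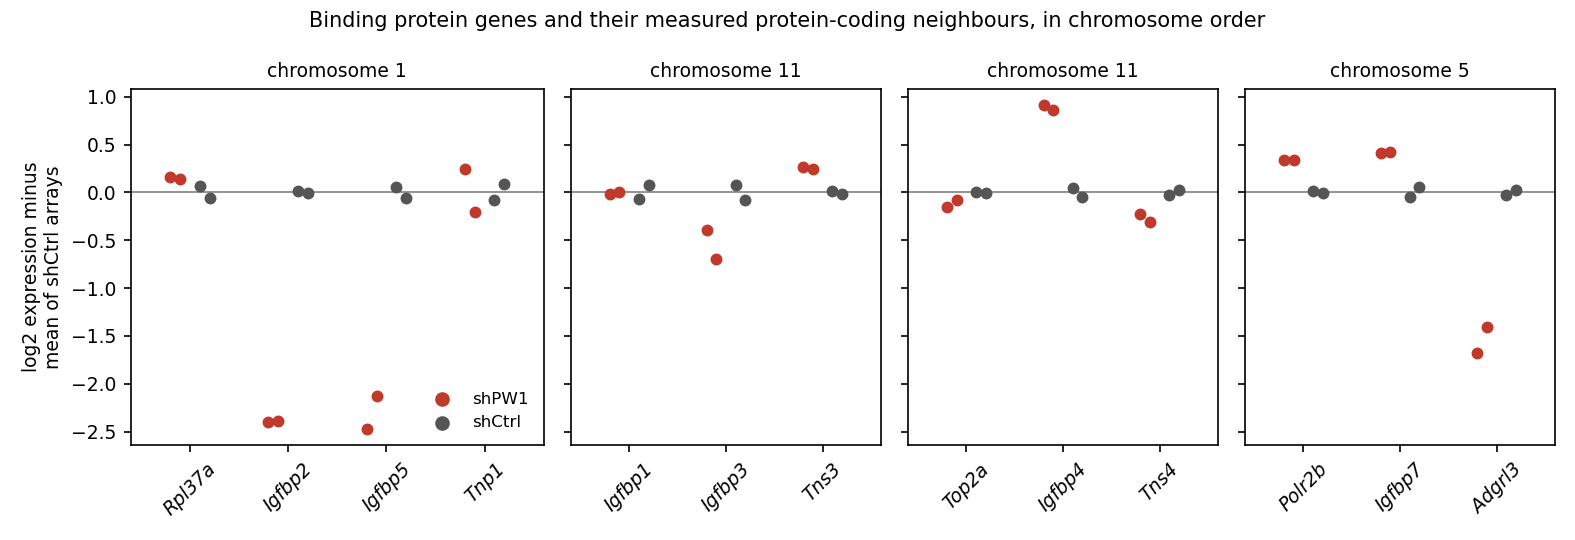
Log2 expression minus the shCtrl mean (y axis) on the shPW1 arrays (red) and the shCtrl arrays (grey) for 4 stretches of binding protein genes and their measured protein-coding neighbours, in chromosome order (x axis, not to scale). *Igfbp2* and *Igfbp5* lie below -2.0 on both shPW1 arrays, between *Rpl37a* and *Tnp1*, whose values stay near 0.

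The promoters of the members with the clearest differences are printed so that their start regions can be compared. Each sequence runs 5′ to 3′ from 250 bases before to 50 bases after a start site (RefSeq, build GRCm38.p6), and capitals mark matches to an E-box (CANNTG), a GC box (GGGCGG) or a TATA box (TATAAA) on either strand. *Igfbp2* has 2 annotated starts on the plus strand, at chr1:72824230-72824529 and chr1:72825137-72825436, *Igfbp5* has 1 on the minus strand at chr1:72874816-72875115, and *Igfbp4* has 1 on the plus strand at chr11:99040994-99041293.
Igfbp2, first start: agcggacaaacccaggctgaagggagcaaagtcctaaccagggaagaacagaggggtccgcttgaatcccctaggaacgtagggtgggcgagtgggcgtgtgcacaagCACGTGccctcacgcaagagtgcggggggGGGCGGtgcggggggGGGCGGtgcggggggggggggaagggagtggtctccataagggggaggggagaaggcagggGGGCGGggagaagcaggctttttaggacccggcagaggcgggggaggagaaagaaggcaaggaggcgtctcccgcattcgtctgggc
Igfbp2, second start: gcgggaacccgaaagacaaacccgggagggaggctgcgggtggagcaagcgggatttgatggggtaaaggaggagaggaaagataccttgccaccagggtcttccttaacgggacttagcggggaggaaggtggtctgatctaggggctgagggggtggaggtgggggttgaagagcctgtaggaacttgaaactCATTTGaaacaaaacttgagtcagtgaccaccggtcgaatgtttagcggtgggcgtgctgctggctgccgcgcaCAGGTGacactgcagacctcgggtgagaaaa
Igfbp5: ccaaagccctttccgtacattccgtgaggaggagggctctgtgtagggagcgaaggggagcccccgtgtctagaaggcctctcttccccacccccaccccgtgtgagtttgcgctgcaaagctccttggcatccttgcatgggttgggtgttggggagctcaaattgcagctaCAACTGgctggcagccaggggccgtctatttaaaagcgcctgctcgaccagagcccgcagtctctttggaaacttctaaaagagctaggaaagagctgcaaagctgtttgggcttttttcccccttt
Igfbp4: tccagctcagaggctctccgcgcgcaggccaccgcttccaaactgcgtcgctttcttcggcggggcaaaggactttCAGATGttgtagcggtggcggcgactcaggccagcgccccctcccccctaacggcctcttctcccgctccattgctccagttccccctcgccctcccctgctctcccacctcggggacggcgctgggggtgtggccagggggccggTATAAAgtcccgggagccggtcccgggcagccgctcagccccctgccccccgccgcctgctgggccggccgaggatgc

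The first *Igfbp2* start lies in GC-rich sequence (67% G or C, against a median of 52.7% over 32851 promoters of this length) and holds 3 GC boxes, the nearest 37 bases before the start. The *Igfbp5* start (56.3% G or C) holds none of these boxes but 1 E-box, 77 bases before the start. The *Igfbp4* start (71.3% G or C) holds a TATA box 28 bases before it, a motif found in 13.6% of all promoters and, among the 10 genes, otherwise in *Igfbp6* alone. The adjacent genes *Igfbp2* and *Igfbp5* thus share an E-box, which 72.3% of all promoters hold, and little else among these letters.

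Of the 14 promoters of the 10 genes, 10 held an E-box (72.3% of all promoters), 6 a GC box (35.7%) and 3 CCAAT (37.4%), while CAGCTG, the form of E-box preferred by MyoD, was in 1, that of *Igf1* (16.3%). Neither TGTTTAC, a FoxO motif (3.65% of all promoters), nor the PW1 consensus named in the study (AGT, 2 free bases, C, 3 free bases, TGGCT) was found in any of them. The PW1 consensus occurs in 0.484% of all promoters of this length. A match is a string of letters and no shown site, and a missing match says only that the letters are not in this window.

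The rest of the pathway was followed through 9 lists with 134 measured genes, drawn up from general knowledge with earlier results of these data known. Of these, 20 rose (14.9%) and 14 fell (10.4%), with a median log2 fold change of 0.02, beside 4.93% and 4.35% of all genes by their brightest probe set. Bright genes were called more often. Among the 100 list genes at or above the median level, 16% rose and 12% fell, beside 8.97% and 6.86% of all genes at that level. With 1 array left out, the log2 fold changes stayed between 1.44 and 1.59 for *Bcl2l11* and between 0.98 and 1.06 for *Plaur*. That of *C1s1*, also among the largest differences, ranged more widely, from 1.12 to 1.68.

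Proteins that share the IGF-binding domain without being classical binding proteins were mixed, with 3 of 14 higher, 2 lower and a median of -0.04. *Ccn5*, a matricellular growth regulator, rose, with 8.12 and 8.13 on the shPW1 arrays and 7.55 and 7.64 on the shCtrl arrays (log2 fold change 0.53, SE 0.06, adjusted p = 0.0202). *Crim1*, a membrane antagonist of BMPs, rose likewise (0.48, adjusted p = 0.0202), as did *Ccn2*, known as connective tissue growth factor (0.38, adjusted p = 0.0337). *Htra3*, a secreted serine protease, fell, with 5.79 and 5.77 in shPW1 and 6.29 and 6.39 in shCtrl (-0.56, SE 0.07, adjusted p = 0.0198). *Ccn3*, another matricellular protein, fell at a level below the median (-0.59, SE 0.11, adjusted p = 0.0483, and 0.0715 after a second quantile normalization).

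Among the proteases that cut binding proteins, their inhibitors and the serum ternary complex, 3 of 18 rose and 1 fell, with a median of 0.05. *Pappa*, whose product cuts IGFBP4 in the presence of IGF, rose at a mean level below the median level of the tested probe sets. It had 6.14 and 6.13 on the shPW1 arrays and 5.82 and 5.71 on the shCtrl arrays (log2 fold change 0.37, SE 0.07, adjusted p = 0.0426), as *Igfbp4* was also higher. *Adam12*, whose product cuts IGFBP3 and IGFBP5, rose (0.43, SE 0.06, adjusted p = 0.0275). *C1s1*, a complement protease reported to cut IGFBP5 in human fibroblasts, had 5.46 and 6.01 in shPW1 and 4.32 and 4.34 in shCtrl (1.40, SE 0.19, adjusted p = 0.0245). Its level was below the median, and the near-identical copy *C1s2* could share its probes. *Timp2*, an inhibitor of matrix metalloproteinases, fell (-0.30, SE 0.06, adjusted p = 0.0495, and 0.0861 with array medians subtracted). Of 14 measured surface and matrix partners only *Itga5*, the fibronectin receptor chain to which IGFBP2 can bind, passed, with 10.47 and 10.36 in shPW1 and 9.91 and 9.91 in shCtrl (0.50, SE 0.07, adjusted p = 0.0236), and the list's median was -0.04. No partner fell, although 2 had an unadjusted p under 0.05 and a negative log2 fold change, and 2 fell by the methods' analysis of variance.

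Genes known to act on IGF expression moved in both directions. Of 7 measured *Igf2* regulators, *Igf2bp1*, which encodes an *Igf2* mRNA-binding protein, rose at a level below the median of the tested probe sets (log2 fold change 0.61, SE 0.11, adjusted p = 0.042), but the mean of its 2 probe sets gave 0.37 and was not called (adjusted p = 0.0882). *Hmga2*, a chromatin protein known to promote *Igf2bp2* expression, rose, with 9.16 and 9.24 on the shPW1 arrays and 8.69 and 8.59 on the shCtrl arrays (0.56, SE 0.07, adjusted p = 0.0221). *Plagl1*, an imprinted zinc-finger gene that activates the *Igf2* and *H19* region in the mouse, fell at a low level, with 4.51 and 4.28 against 4.91 and 4.99 (-0.55, SE 0.10, adjusted p = 0.0385). In the growth hormone arm, 3 of 8 genes rose and 1 fell, with a median of 0.15. The growth hormone receptor gene *Ghr* rose, with 8.37 and 8.46 in shPW1 and 7.92 and 7.73 in shCtrl (0.59, SE 0.09, adjusted p = 0.0299). *Cebpb* (0.63, adjusted p = 0.0137) and *Cebpd* (0.55, adjusted p = 0.0283), transcription factors that can act on the *Igf1* promoter, rose, *Cebpd* at a level below the median of the tested probe sets. *Stat5a*, a mediator of growth hormone signalling, fell (-0.42, adjusted p = 0.0272).

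Downstream of the receptor, no call was made in the first layer. None of the 17 measured genes for the insulin receptor family, docking proteins and adaptors passed the limma test, and their log2 fold changes lay between -0.15 and 0.20 with a median of -0.01. Without adjustment 2 had a p under 0.05, both positive, and none passed the methods' analysis of variance with its fold threshold. In limma 2 were called higher with dim probe sets left out and 1 with a trended robust prior. The insulin receptor gene *Insr* (0.10, SE 0.07) and the substrates *Irs1* (0.15, SE 0.06) and *Irs2* (-0.06, SE 0.06) were among them. Of 25 measured genes of PI3K, Akt and mTOR, 2 rose and 3 fell, with a median of 0.04. *Deptor*, an inhibitor of mTOR, fell, with 7.82 and 7.79 on the shPW1 arrays and 8.46 and 8.54 on the shCtrl arrays (log2 fold change -0.70, SE 0.06, adjusted p = 0.0117). The PI3K regulatory subunit genes *Pik3r2* (-0.49, adjusted p = 0.0245) and *Pik3r3* (-0.40, adjusted p = 0.0338, and 0.0507 with array medians subtracted) fell. *Phlpp1*, an Akt phosphatase, rose (0.54, adjusted p = 0.0202), and *Akt1* itself was not called (0.04, SE 0.06).

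FoxO factors, which Akt keeps out of the nucleus, were not called themselves, while several of their known targets were. Of 20 genes in that list 3 rose and 5 fell, with a median of -0.04. *Bcl2l11*, the gene of the cell death inducer Bim, rose most, with 8.08 and 8.23 on the shPW1 arrays and 6.66 and 6.61 on the shCtrl arrays (log2 fold change 1.52, SE 0.08, adjusted p = 0.00504). *Fbxo32*, the muscle ubiquitin ligase atrogin-1, also rose (0.79, SE 0.09, adjusted p = 0.0192). In the opposite direction, *Bnip3*, a mitophagy gene that also responds to hypoxia, had 7.29 and 7.38 in shPW1 and 8.24 and 8.21 in shCtrl (-0.89, SE 0.06, adjusted p = 0.00781). The mean of the 2 probe sets of *Bnip3* gave a smaller fall (-0.65), which was still called. *Sesn3*, a stress-response gene, fell as well (-0.66, SE 0.06, adjusted p = 0.0106). The list thus did not move one way.

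**Figure D5:**
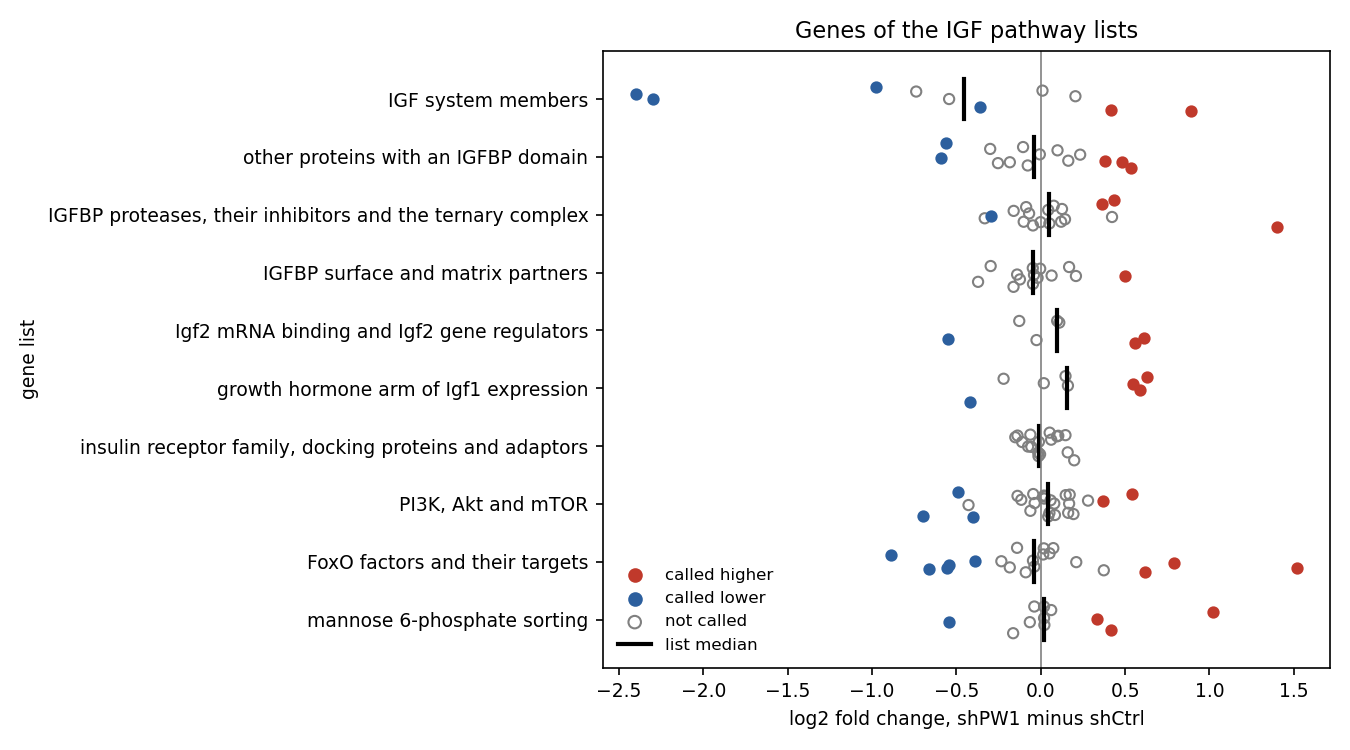
Log2 fold change, shPW1 minus shCtrl (x axis), of each measured gene (points) in the 10 IGF genes and the 9 pathway lists (rows), with genes called higher in red, called lower in blue, not called open, and the list median as a black bar. Medians of the 9 lists lie between -0.04 and 0.15, and the receptor family, docking proteins and adaptors hold no called gene.

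The mannose 6-phosphate pathway, which shares IGF2R, had 3 of 11 measured genes higher and 1 lower, with a median of 0.02. *Plaur*, the urokinase receptor, which IGF2R can bind, rose, with 10.09 and 10.05 on the shPW1 arrays and 9.09 and 9.01 on the shCtrl arrays (log2 fold change 1.02, SE 0.06, adjusted p = 0.00647). The genes of the enzymes that build and uncover the sorting tag, *Gnptab* (0.33, adjusted p = 0.0396) and *Nagpa* (0.42, adjusted p = 0.0245), rose. *Gga2*, an adaptor that carries the receptor from the Golgi, fell, with 7.998 and 7.979 in shPW1 and 8.580 and 8.480 in shCtrl (-0.54, SE 0.07, adjusted p = 0.0202).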

How the data were processed

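Total RNA of AdmMABs was hybridised to Affymetrix Mouse Gene 1.0 ST arrays, 2 in shPW1 and 2 in shCtrl. The authors deposited log2 expression values made with RMA in Partek, version 6.4 according to the processing notes, so background correction, normalization between arrays and summarization over probes came before deposit. Of 35556 rows, the 21789 with exactly 1 gene symbol were fitted, while 1621 that name several symbols and 12146 that name no symbol stayed out. Symbols of 21698 probe sets were updated through a RefSeq gene table, and the others kept the array's symbol. The brightest probe set by mean over the 4 arrays stood for a gene.

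shPW1 was compared with shCtrl in limma 3.58.1 (lmFit and eBayes, R 4.3.3, 2 residual and 2.72 prior degrees of freedom). P-values were two-sided, adjusted by Benjamini-Hochberg over all probe sets fitted, and called under 0.05. A probe set was dim where its mean was under 6.05, the median of those fitted. No depth or detection call exists for these values, so the number of arrays limits the precision. On data drawn once for 21789 probe sets, with 50 changed at each size, the fit recovered 16% of changes of 0.5 on the log2 scale. It recovered 88% of changes of 1 and 98% of changes of 2, and 7 of 157 calls were false. On the deposited values 9.1% of probe sets were called, so the adjusted cut-off differs and these rates need not hold there.

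The members, lists and tests were chosen with earlier results of these data known. Named were the members, *Peg3*, *Igfbp1*, the members' neighbours, up to 4 called genes of largest change in each pathway list and the 3 profiles nearest to members past 1 on the log2 scale. Others, such as *Ccn2*, *Insr*, *Irs1*, *Irs2*, *Akt1* and the markers named, were added after their values were seen. The alternatives were 9 other settings, each array left out in turn, and a crossed block added later. Promoters are RefSeq sequences of GRCm38.p6, and the array's own build is not given in the sources used here.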

Additional observations from a re-analysis of the deposited data

How the results depend on the processing

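The limits are set by 2 arrays per group. As deposited, 1075 probe sets were called higher and 908 lower, with 2 and 4 of the IGF genes and 20 and 14 of the pathway genes. With dim probe sets left out, 2505 were called higher and 1799 lower, out of only the probe sets at or above the median level. With a trended robust prior, 2735 were called higher and 1978 lower, out of all 21789. *Igf2*, *Igf1r* and *Igfbp3* were then called too under both settings, giving 9 IGF genes. The dim cut was applied to the mean over all arrays of both groups. For *Igf2* and *Igfbp3* the shPW1 mean lay below that cut and the shCtrl mean above it. That these genes stayed in the fit without dim probe sets therefore depended on their shCtrl arrays. With array medians subtracted 1637 were called higher, and *Igfbp6*, *Timp2* and *Pik3r3* lost their calls, while a second quantile normalization lost that of *Ccn3*. Testing all rows left 36 higher and 50 lower, of which 0 and 1 were IGF genes (*Igfbp2*) and 1 and 0 pathway genes (*Bcl2l11*). The methods' analysis of variance with Benjamini-Hochberg adjustment and the fold threshold left 1 and 0 probe sets, 0 and 0 IGF genes, and 0 and 0 pathway genes. Without adjustment it called 1383 probe sets higher and 1165 lower, 2 and 4 of the IGF genes among them.

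The titles number the arrays alike in both groups, but no source says that a number marks a shared preparation, and deviations of same-numbered arrays correlated at -0.11. With that number as a replicate block 256 were called higher and 258 lower, with 1 and 3 of the IGF genes and 6 and 3 of the pathway genes. *Igfbp6* and *Igfbp7* were then no longer called. With crossed pairing, added after seeing the data, 213 were higher and 224 lower, with 1 and 2 IGF genes and 5 and 3 pathway genes.

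With 1 array left out, the lone array was assumed to vary like the other group. Counts higher and lower were then 0 to 0 in each case, for probe sets, IGF genes and pathway genes, although 3790 to 5379 probe sets had an unadjusted p under 0.05. Of the 40 genes followed, *Igf1* (-0.0699 without shPW1 replicate 2 to 0.0906 without shPW1 replicate 1) and *Igfbp1* turned sign. *Igfbp1* gave 0.0412 after quantile normalization, 0.0590 with medians subtracted, and -0.0798 to 0.0690 with single arrays left out. The cause of these shifts was not tested.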

Other observations

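Next to *Igf2* lies *H19*, a non-coding RNA gene whose transcript is the precursor of the microRNA miR-675. One probe set is annotated to both *Mir675* and *Supt6* and was left out of the fit because it names more than 1 gene. It read 8.034 and 8.002 on the shPW1 arrays and 10.550 and 10.559 on the shCtrl arrays, which is 5.80-fold lower in shPW1 (log2 fold change -2.54, SE 0.06, adjusted p = 0.0256 with all rows tested in limma, a setting under which 36 rows were called higher and 50 lower). Which of the annotated genes this signal comes from was not tested, and it was looked up after the *Igf2* values had been seen. *Igf1os*, a non-coding gene opposite *Igf1*, was dim and gave 3.33 and 3.15 in shPW1 and 3.11 and 3.14 in shCtrl (log2 fold change 0.11, SE 0.09).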
